A study of Mus musculus with 2 samples.

Results

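Cytosolic DNA sensing was represented by 7 genes: the sensor cGAS (listed under its older symbol Mb21d1), the adaptor STING (listed as Tmem173), the nucleic acid sensors Zbp1, Ifi203 and Ifi204, and the clearance enzymes Trex1 and Samhd1. They were chosen by name for their place in this pathway, with earlier results of these data known, and are 7 of the 25509 genes in the count table. All 7 passed the filter of 10 counts in 1 library or both, which left 12941 genes. Polyadenylated RNA was sequenced from 2 cultures of mouse soft-tissue sarcoma cells to ask which pathways change when the circular RNA circCsnk1g3 is silenced. Per the labels, both cultures came from C57BL/6 mesenchymal stem cells that lack p53 (p53-/-) and overexpress Ccne1, which were grown as tumors under the skin of mice, passed into the lungs of other mice and recovered there from sarcoma foci. The recovered cells then received 1 of 2 lentiviral hairpins, shcircCsnk1g3 against the backsplice junction of circCsnk1g3 or the control hairpin shCTR, and were kept under puromycin. Loss of p53, Ccne1 overexpression, the passage through mice, the lentiviral vector and puromycin were therefore shared by both groups, and each group was 1 library. Whether a culture was a pool or a clone is not given in the sources used here. Differences below compare those 2 libraries, with no replicate check and no p-value.

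DNA does not belong in the cytosol, and cells treat it there as a sign of infection or damage. cGAS binds it and makes the messenger cyclic GMP-AMP, which activates STING on the endoplasmic reticulum. STING then recruits the kinase TBK1, which activates the transcription factor IRF3 and with it the genes of type I interferons. Interferon in turn induces many sensors, so that several genes of the pathway are both its parts and its targets. Nucleases and nucleotide-degrading enzymes work on the other side, removing the DNA or the building blocks from which it is made. The pathway is studied in tumors because DNA from broken chromosomes and endogenous retroelements can engage it.

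A count is the number of fragments assigned to a gene. A CPM is that count scaled to a common library size with TMM factors, which also correct for composition. A log2 fold change is that of shcircCsnk1g3 over shCTR, followed by the exact 95% interval of the count ratio, which covers counting error only. Total counts were 38792143 for shcircCsnk1g3 and 42709996 for shCTR, TMM factors were 1.01 and 0.989, and all genes together had a median log2 fold change of 0.00. The linear transcript of the targeted gene, Csnk1g3, had 2159 and 2411 counts and a log2 fold change of -0.05 (-0.14 to 0.03). The circRNA has no poly(A) tail, so its depletion was not measured. Trp53 had 3841 and 4334 counts and Ccne1 893 and 963. Gene totals cannot check the labelled p53 loss, as the deleted part was not read separately, and without parental cells they cannot check Ccne1 overexpression. The labelled mesenchymal type was checked on 12 markers, which summed to 11995 CPM in shcircCsnk1g3 and 12595 CPM in shCTR. Vim was the largest part of both sums, at 5746 and 6683 CPM, and Thy1 and Fap were at or under 1 count in both. Of the 10 markers tested, 2 were above 0 and 8 below, and Ly6a was past 1.5-fold lower in the silenced library, with 1854 and 3223 counts and a log2 fold change of -0.69 (-0.77 to -0.61). Their part in the differences below was not tested.

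After silencing of circCsnk1g3, the 7 genes fell into different ranges. Zbp1, Ifi203 and Ifi204 were 1.5-fold or more above the control, cGAS and Trex1 were higher by less than that, and STING and Samhd1 stood at 0.911 and 0.972 of the control level. Thus 3 of 7 genes were past 1.5-fold higher and 0 were past 1.5-fold lower, where 5.39% of all genes tested were past it higher and 6.31% lower. Their median log2 fold change was 0.40, with 5 values above 0 and 2 below. The interval lay above 0 for 5 genes, below 0 for STING, and held 0 for Samhd1. In bulk RNA, more cells that express a gene and more RNA per cell cannot be told apart.

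**Figure D1:**
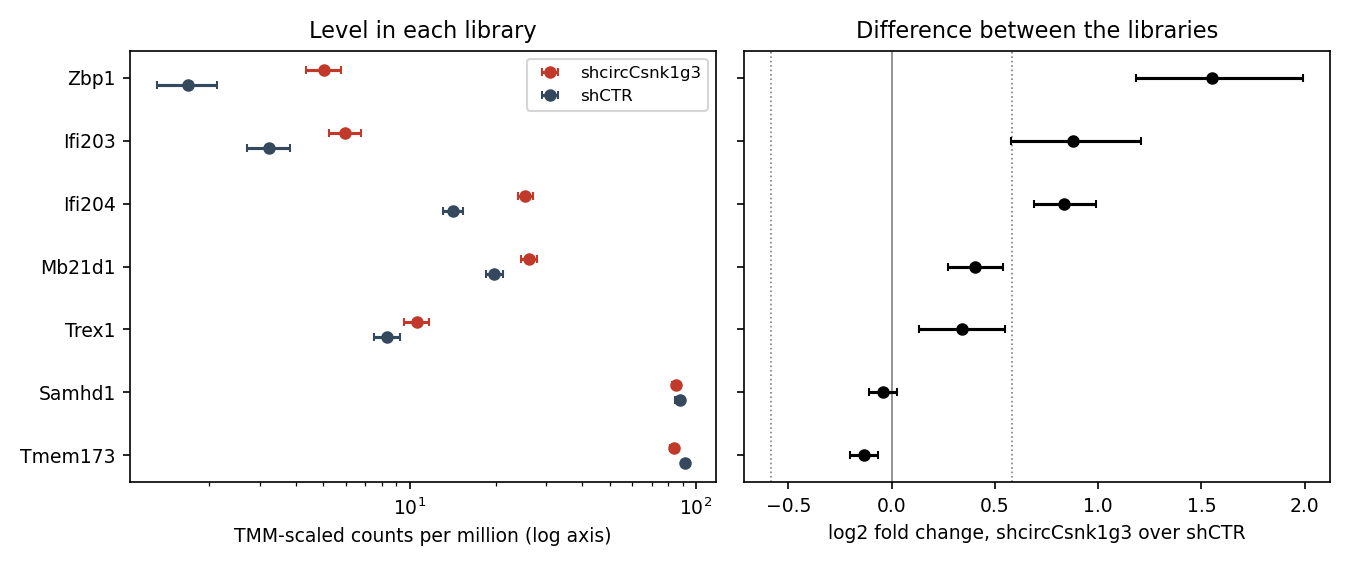
The left panel plots the TMM-scaled CPM of the 7 genes in each library on a log axis with exact 95% Poisson intervals, and the right panel plots the log2 fold change of shcircCsnk1g3 over shCTR with the exact 95% interval of the count ratio, with dotted lines at 1.5-fold. The library intervals of Zbp1, Ifi203, Ifi204, Mb21d1 and Trex1, higher in shcircCsnk1g3, and of Tmem173, lower in it, are apart, those of Samhd1 overlap, and Zbp1 has the highest log2 fold change, 1.55.

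cGAS, the enzyme that turns cytosolic DNA into cyclic GMP-AMP, is encoded by Mb21d1 (ENSMUSG00000032344.17) on the minus strand of chromosome 9 (GRCm38), chr9:78430526-78443237. It had 1026 counts with shcircCsnk1g3 and 835 with shCTR, or 26.2 and 19.8 CPM. The silenced library was thus the higher one, by 6.40 CPM. The log2 fold change was 0.40 (0.27 to 0.54), a 1.32-fold difference that exceeded that of 90.8% of genes tested.

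STING, the adaptor that receives the cyclic dinucleotide, is encoded by Tmem173 (ENSMUSG00000024349.9), chr18:35733679-35740554 on the minus strand. It had 3286 counts with shcircCsnk1g3 and 3886 with shCTR, or 83.8 and 92.0 CPM. The direction was opposite to that of cGAS, with the silenced library lower by a log2 fold change of -0.13 (-0.20 to -0.07). In the ratio of the ratios, cGAS stood above STING by 0.54 on the log2 scale (0.39 to 0.69), so the sensor and its adaptor differed beyond counting error in these libraries. Per kilobase of exon, STING was nevertheless the most abundant of the 7 transcripts in both libraries.

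Zbp1, a sensor of Z-form nucleic acids that can start necroptosis, had the largest difference of the 7. The gene (ENSMUSG00000027514.14) lies on the minus strand of chromosome 2, chr2:173206612-173218923. It had 197 counts in the shcircCsnk1g3 library against 71 in the shCTR library, or 5.02 and 1.68 CPM. The silenced library was higher by a log2 fold change of 1.55 (1.18 to 1.99), or 2.93-fold, which placed Zbp1 at rank 107 from the top of the 12941 genes. Zbp1 was among the scarcer transcripts of the group, and its interval was correspondingly the widest. Its log2 fold change stood above that of Ifi203 by 0.69 (0.17 to 1.21), above that of Ifi204 by 0.74 (0.31 to 1.18) and above that of STING by 1.71 (1.31 to 2.13).

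Ifi203 and Ifi204 belong to the Ifi200 (PYHIN) family of interferon-inducible proteins, of which several bind DNA. Ifi204 is often taken as a mouse counterpart of human IFI16, a DNA sensor that can act with STING. Ifi204 (ENSMUSG00000073489.5, minus strand, chr1:173747293-173766943) had 996 counts with shcircCsnk1g3 and 600 with shCTR, or 25.4 and 14.2 CPM. Ifi203 (ENSMUSG00000039997.16, minus strand, chr1:173920407-173942672) had 234 and 136 counts, or 5.97 and 3.22 CPM. Both were higher in the silenced library and by similar folds despite their different levels. The log2 fold change was 0.84 (0.69 to 0.99) for Ifi204 and 0.88 (0.58 to 1.21) for Ifi203, and the difference between them was 0.05 (-0.29 to 0.40). The silenced library exceeded the control by 11.2 CPM for Ifi204 and 2.75 CPM for Ifi203.

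Trex1, the main cytosolic 3' to 5' DNA exonuclease, clears the DNA that cGAS would otherwise bind. The gene (ENSMUSG00000049734.9) lies on the minus strand at chr9:109057933-109059734. It had 415 counts with shcircCsnk1g3 and 353 with shCTR, or 10.6 and 8.36 CPM. The silenced library was the higher one, with a log2 fold change of 0.34 (0.13 to 0.55). This value depends on how reads were assigned, since Trex1 lies inside the longer gene Atrip on the same strand. Of the 1097 stretches of 50 bases in Trex1 transcripts, 95.8% also occurred in transcripts of Atrip, a partner of the DNA damage kinase ATR. Atrip had 747 and 770 counts, a log2 fold change of 0.06 (-0.08 to 0.21), and Trex1 and Atrip summed to 1162 and 1123 counts, a log2 ratio of 0.16 (0.04 to 0.28).

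Samhd1, which degrades the deoxynucleotides needed for DNA synthesis and limits reverse transcription, lies on the minus strand of chromosome 2, chr2:157097533-157135265 (ENSMUSG00000027639.16). It had 3341 counts with shcircCsnk1g3 and 3704 with shCTR, or 85.2 and 87.7 CPM. The levels were close. The log2 fold change was -0.04 (-0.11 to 0.03), and the counting interval of the ratio ran from 0.927 to 1.02. On the counts as assigned, Trex1 stood above Samhd1 by 0.38 (0.16 to 0.60). That interval does not cover how reads were divided between Trex1 and Atrip, whose sum had a log2 ratio of 0.16 (0.04 to 0.28). Samhd1 and STING, the only genes of the 7 below 0, differed by 0.09 (-0.00 to 0.19), an interval that holds 0.

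Of the 21 pairs among the 7 genes, 18 differed in log2 fold change with an interval above 0 and 3 did not. These 3 were Samhd1 with STING, Ifi203 with Ifi204, and cGAS with Trex1, whose difference was 0.06 (-0.19 to 0.31). The folds therefore ordered as Zbp1 first, then Ifi203 and Ifi204, then cGAS and Trex1, then Samhd1 and STING. Neighbours inside each of these groups were not separated by counting error. The place of Trex1 depends on how reads were divided with Atrip, which the intervals do not cover. The intervals also say nothing about how much differences between genes would vary between cultures.

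**Figure D2:**
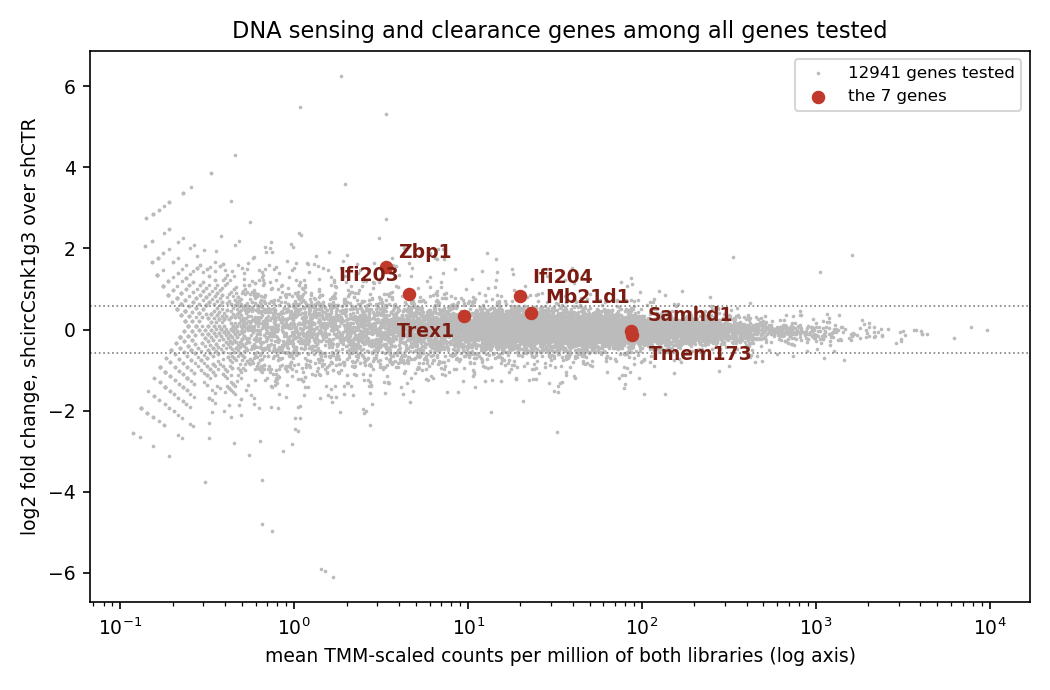
Each gray point is 1 of the 12941 genes tested, with the mean TMM-scaled CPM of both libraries on the log x axis and the log2 fold change of shcircCsnk1g3 over shCTR on the y axis. Zbp1, Ifi203 and Ifi204 lie above the upper dotted line at 1.5-fold, while Mb21d1, Trex1, Samhd1 and Tmem173 lie between the lines.

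The spread of all genes widens at low counts, and Zbp1 and Ifi203 lie in the part where it does. Among the 10662 genes that reached 200 summed counts, 1.99% were past 1.5-fold higher and 3.14% lower. All 7 genes belong to that set, but Zbp1 and Ifi203 lie near its minimum, and it was not matched to their counts. Within it, 99.8% of genes had a lower log2 fold change than Zbp1, 99.3% lower than Ifi203, 99.1% lower than Ifi204, 95.2% lower than cGAS and 93.0% lower than Trex1. STING and Samhd1 were unlike these, with 25.3% and 41.2% of genes below them.

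Levels of different genes were compared per kilobase of annotated exon. In the shCTR library the order was STING (33.6 CPM per kilobase), Samhd1 (9.58), Trex1 (7.28), cGAS (4.79), Ifi204 (3.99), Ifi203 (0.480) and Zbp1 (0.476). The last pair did not differ beyond its Poisson intervals. In the shcircCsnk1g3 library STING (30.6) again came first, followed by Samhd1 (9.31), Trex1 (9.23), Ifi204 (7.13), cGAS (6.34), Zbp1 (1.42) and Ifi203 (0.890). Here Samhd1 and Trex1 overlapped, as did Ifi204 and cGAS. The level of the adaptor thus exceeded those of the other 6 genes in both libraries. The order depended on the length used, and the level of Trex1 on how reads were divided with Atrip. With the longest transcript in place of all exons, Ifi204 was above cGAS in both libraries, at 11.1 against 6.46 CPM per kilobase with shcircCsnk1g3 and 6.19 against 4.88 with shCTR. Ifi203 was likewise above Zbp1 in both, at 1.59 against 1.51 and at 0.857 against 0.505. By that length Samhd1 (21.7) and Ifi204 also stood above Trex1 (9.76) with shcircCsnk1g3.

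The Ifi200 genes lie side by side on chromosome 1, and Ifi203 and Ifi204 could be set against the rest of their cluster. Of 13 family genes in the table, 11 passed the filter, 8 were past 1.5-fold higher and 0 lower, where 5.39% of all genes tested were past it higher and 6.31% lower. The family's median log2 fold change was 0.84, against 0.00 over all genes. These values depended on the scarce members. Ifi205, Pydc3, Gm4955 and Pydc4 passed the filter only through the shcircCsnk1g3 library, where they were higher, so their direction was fixed by it. Of the 7 family genes with at least 10 counts in both libraries, 4 were past 1.5-fold higher and 0 lower, with a median of 0.59. Ifi203 and Ifi204 were among those 4, and the share of all genes under that filter is not given here. The median was also 0.59 over family genes with at least 50 summed counts and 0.55 over those with at least 200. Besides Ifi203 and Ifi204, the genes past 1.5-fold were Pydc3 (Ifi208), AI607873 (Ifi207), Ifi205, Mndal, and on very few counts Gm4955 (Ifi206) and Pydc4 (Ifi213). The members outside the rule for named genes are given here to complete the cluster and were chosen after their values were seen.

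The scarce family members had wide intervals. Ifi205 had 29 counts with shcircCsnk1g3 and 9 with shCTR, a log2 fold change of 1.59 (0.68 to 3.06). AI607873 had 47 and 18 counts, a log2 fold change of 1.39 (0.68 to 2.36). Pydc3 had 18 and 4 counts, a log2 fold change of 1.82 (0.68 to 4.30). These 3 intervals lay above 0, but Ifi205 and Pydc3 passed the filter only through the library where they were higher. Their intervals do not account for that, so their lying above 0 is not read as a result. Gm4955 had 10 and 3 counts, a count ratio of 1.84 on the log2 scale (-0.11 to 4.34), and Pydc4 had 10 and 6 counts, with an interval of -0.76 to 2.59, so both intervals held 0. With Gm4955 entered at that count ratio the family median was again 0.84. BC094916 (Ifi214), with 1 count in each library, and Ifi202b, with 2 and 0, were at or under the floor of 3 counts and gave no fold.

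Other relatives reached higher counts. Mnda (Ifi211), the family gene with the most counts, had 1691 and 1277, a log2 fold change of 0.51 (0.41 to 0.62). Mndal had 397 and 284 counts, a log2 fold change of 0.59 (0.37 to 0.82), just at the 1.5-fold threshold. Pyhin1 (Ifi209) had 279 and 273 counts, a log2 fold change of 0.14 (-0.11 to 0.38). Aim2, the DNA receptor that assembles an inflammasome instead of signalling through STING, was the only family gene tested with a lower level in the silenced library. It had 630 and 887 counts, a log2 fold change of -0.39 (-0.54 to -0.24).

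Ifi200 genes are close copies, and part of their counts depends on how reads that match several of them were divided. Of the stretches of 50 bases in Ifi204 transcripts, 20.02% also occurred in other genes, chiefly Ifi211 (14.8%) and Mndal (5.44%). For Ifi203 the share was 12.2%, chiefly the pseudogene Ifi203-ps (8.85%) and Mndal (3.34%), which also overlaps Ifi203 on the same strand. Mnda shared 72.8% of its stretches and Pyhin1 33.7%. Ifi203 and Mndal summed to 631 and 420 counts, a log2 ratio of 0.69 (0.51 to 0.88), so the sum of these genes was also higher in the silenced library. No such sum was made for Ifi204 with Ifi211, although Ifi204 shares more with it. Apart from Trex1, described above, the share was 0.696% for cGAS, 1.70% for Samhd1 and 0% for STING and Zbp1.

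**Figure D3:**
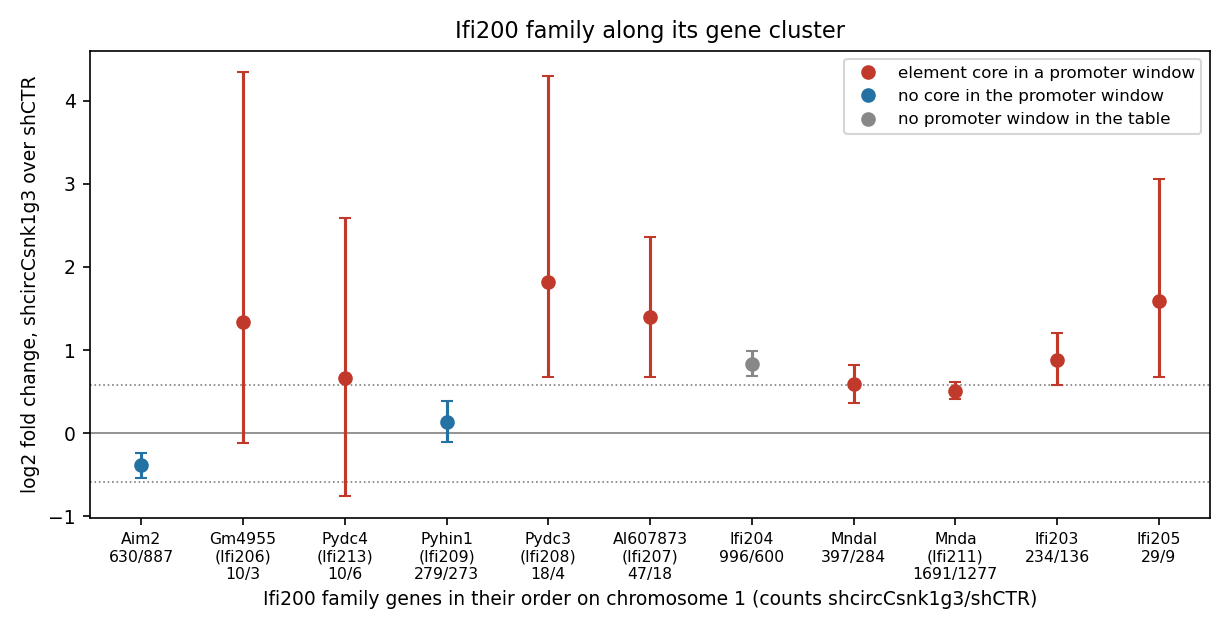
The 11 Ifi200 genes tested are placed in their order on chromosome 1, with the log2 fold change of shcircCsnk1g3 over shCTR and its exact 95% interval on the y axis and the counts of both libraries under each name. Colors mark whether a RefSeq promoter window holds the response element core, and Aim2 is the only gene below 0, at -0.39.

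The promoter windows of the cluster are shown because its genes differed together in most but not all cases. RefSeq windows on GRCm38.p6 span 250 bases before and 50 bases after a gene's start. They were searched on both strands for GAAANNGAAA, the core of the interferon-stimulated response element, a promoter element known from interferon-induced genes. The motif was chosen after the family's values were seen. Each line gives 50 bases of the gene's own strand, 5' to 3', with the core in capitals. The windows are Ifi203 (minus strand, chr1:173942498-173942547), Mndal (minus, chr1:173880194-173880243), Ifi211 (minus, chr1:173913054-173913103), Ifi205 (minus, chr1:174031860-174031909), Ifi207 (minus, chr1:173741821-173741870), Ifi208 (plus, chr1:173673587-173673636), Aim2 (plus, chr1:173420554-173420603) and Ifi209 (plus, chr1:173630809-173630858).
Ifi203: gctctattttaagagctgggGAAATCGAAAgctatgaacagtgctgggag
Mndal: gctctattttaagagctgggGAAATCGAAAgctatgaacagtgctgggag
Ifi211: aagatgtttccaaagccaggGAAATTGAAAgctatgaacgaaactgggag
Ifi205: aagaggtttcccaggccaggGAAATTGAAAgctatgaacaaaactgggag
Ifi207: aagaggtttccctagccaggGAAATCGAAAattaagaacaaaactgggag
Ifi208: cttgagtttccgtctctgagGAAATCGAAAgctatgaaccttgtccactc
Aim2: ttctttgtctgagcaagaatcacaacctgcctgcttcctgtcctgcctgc
Ifi209: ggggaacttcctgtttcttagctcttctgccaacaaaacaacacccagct
Aim2 and Ifi209 have no match in their windows and are shown by the 50 bases just before the start.

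Of 12 family genes with a window, 9 held the core, against 3.44% of all 32851 RefSeq windows and 3.99% of the 27025 genes that have one. Aim2 and Pyhin1, with log2 fold changes of -0.39 and 0.14, had no core in their windows. No contrast is drawn from this within the family, as the motif was chosen after its values were seen and the filter fixed the direction of 4 genes with the core. The Ifi203 and Mndal stretches were letter for letter the same, so windows of such close copies are not separate observations. Ifi203 had another window, which held no match. The windows of Cgas, Trex1 and Samhd1 held no match. Ifi204, Zbp1 and Sting1 had no entry. Among all tested genes with a window, the core was held by 11.8% of 451 genes past 1.5-fold higher, 3.32% of 572 genes past 1.5-fold lower and 3.29% of 8893 genes between. Without the Ifi200 family the share was 10.4% of 444 genes past 1.5-fold higher. The search was added after seeing the data, with earlier results known. These shares therefore describe the genes and do not test the motif. A match describes letters in the window and not a bound site, and the absence of one says only that these letters are not there.

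The other genes of the pathway were grouped into 11 lists by role, among them the Ifi200 family above. Leaving out the 7 genes themselves, 146 genes were tested, and 14 of them were past 1.5-fold higher (9.59%) and 4 lower (2.74%). Their median log2 fold change was 0.03. The family held 6 of the 14, among them the 4 that passed the filter only through the library where they were higher. Of the 6, 4 had an interval above 0, but for Ifi205 and Pydc3 it does not account for that filter. In the remaining 137 genes, 8 passed it upward (5.84%) and 4 downward (2.92%) around a median of 0.02. Over all genes tested, 5.39% were past it higher and 6.31% lower. Over those that reached 200 summed counts, 1.99% and 3.14% were, but the pathway shares are not given at that filter. The counts of the lists below are read against the shares over all genes tested. With 4 to 27 genes in a list, 1 or 2 genes past the threshold are not set apart from those shares.

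**Figure D4:**
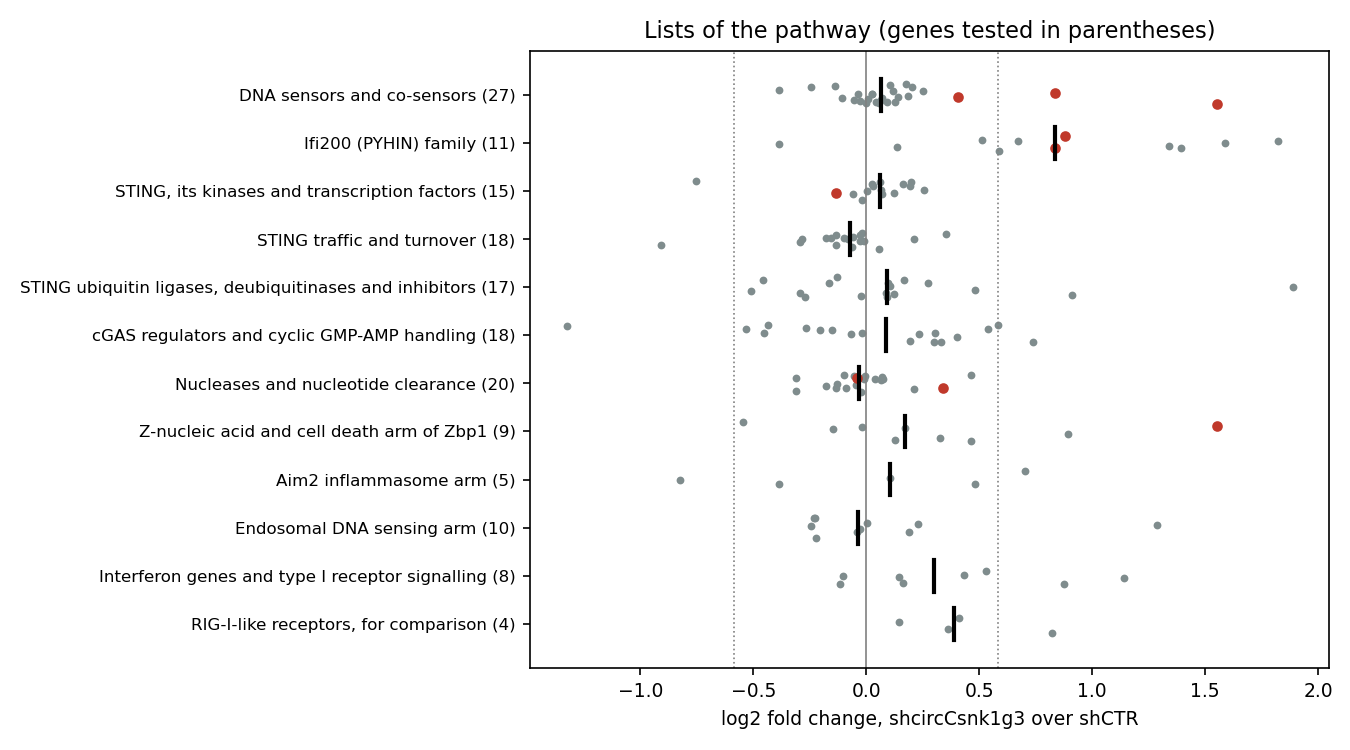
Each point is 1 gene tested, placed by its log2 fold change of shcircCsnk1g3 over shCTR on the x axis in the list of its role, with the 7 genes in red, the list median as a black bar and dotted lines at 1.5-fold. Most list medians lie near 0, and that of the Ifi200 family is 0.84.

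Of 27 DNA sensors and co-sensors tested, 2 were past 1.5-fold higher, both among the 7 genes (Zbp1 and Ifi204), and the median was 0.06. Nono, an RNA- and DNA-binding protein with the most counts of that list, had 24130 and 24883, a log2 fold change of 0.06 (0.04 to 0.09). Of 15 genes for STING, its kinases and transcription factors, 0 were past 1.5-fold higher and 1 lower, with a median of 0.06. The lower gene was Tbkbp1, a TBK1-binding adaptor, at 184 and 336 counts and a log2 fold change of -0.76 (-1.03 to -0.50). Nfkb1, the NF-kappaB precursor with the most counts, had 12876 and 12084, a log2 fold change of 0.20 (0.16 to 0.24). The kinase Tbk1 (0.06, -0.05 to 0.17) and its target Irf3 (0.07, -0.03 to 0.17), named after their values were seen, had intervals that held 0.

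Of 18 genes for STING traffic and turnover, 0 were past 1.5-fold higher and 1 lower, with a median of -0.07. The lower gene, the autophagy kinase Ulk1, had 935 and 1894 counts, a log2 fold change of -0.91 (-1.03 to -0.80). Sqstm1, the autophagy receptor p62, had 35487 and 29950 counts, a log2 fold change of 0.35 (0.33 to 0.37). Of 17 ubiquitin ligases, deubiquitinases and inhibitors that act on STING, 2 were past 1.5-fold higher and 0 lower, with a median of 0.09. Usp18, which removes ISG15 and restrains interferon receptor signalling, had 376 and 108 counts, a log2 fold change of 1.89 (1.59 to 2.23). Trim30a, an interferon-inducible ligase, had 333 and 190 counts, a log2 fold change of 0.91 (0.66 to 1.18). Both are also known interferon targets. Ddost, a subunit of the oligosaccharyltransferase, had 13302 and 17275 counts, a log2 fold change of -0.27 (-0.30 to -0.24).

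Genes around cGAS and its messenger went in both directions. Of 18 tested, 1 was past 1.5-fold higher and 1 lower. Their median of 0.09 had no stable direction, since it was -0.017 in the deposited table, -0.018 with no filter and -0.043 from 200 summed counts. Enpp1, the ectoenzyme that hydrolyzes extracellular cyclic GMP-AMP, had 78 counts with shcircCsnk1g3 and 214 with shCTR. It was lower in the silenced library by a log2 fold change of -1.33 (-1.74 to -0.97), the lowest value among all genes of the lists. Slc46a3, a lysosomal solute carrier, had 40 and 25 counts, a log2 fold change of 0.74 (0.03 to 1.57). Abcc1, an exporter reported for cyclic GMP-AMP, had 10094 and 14694 counts, a log2 fold change of -0.43 (-0.47 to -0.40).

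Nucleases and clearance enzymes, the group of Trex1 and Samhd1, held 0 of 20 genes past 1.5-fold in either direction, and their median was -0.03. Trex1 ranked behind Adar within this list. Adar, which edits double-stranded RNA and binds Z-RNA, had the most counts, 6758 and 5280, and a log2 fold change of 0.46 (0.41 to 0.52). In the Z-nucleic acid and cell death arm, 8 genes had at least 10 counts in both libraries, of which Zbp1 alone was past 1.5-fold higher and 0 were lower, with a median of 0.15. Ripk3, the necroptosis kinase that Zbp1 engages, had only 12 and 6 counts, passed the filter only through the silenced library, and its interval of -0.42 to 2.81 held 0. It is outside the rule for named genes and was chosen after its values were seen.

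Arms of DNA sensing that do not run through STING were also read. In the Aim2 inflammasome arm, 1 of 5 genes tested was past 1.5-fold higher and 1 lower. The median of 0.10 turned to -0.050 with no filter and was 0.29 from 200 summed counts. Casp4, the caspase of the non-canonical inflammasome, had 869 and 575 counts, a log2 fold change of 0.70 (0.55 to 0.86), and Nlrp3 had 17 and 34, a log2 fold change of -0.82 (-1.83 to -0.01). Gsdmd, the pore protein, had 2330 and 2335 counts, a log2 fold change of 0.10 (0.02 to 0.19). In the endosomal arm, 1 of 10 genes was past 1.5-fold higher and 0 lower, with a median of -0.04. The higher gene was Irf7, a transcription factor that is itself induced by interferon, at 336 and 147 counts and a log2 fold change of 1.29 (1.02 to 1.59). Ctsl, a lysosomal protease with the most counts of that arm, had 40023 and 50302, a log2 fold change of -0.22 (-0.24 to -0.20). Tlr9, the endosomal DNA receptor, had 0 counts in both libraries.

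At the end of the pathway, the 10 interferon genes of the list were at or under 3 counts in both libraries, a floor of 0.0765 CPM in shcircCsnk1g3 and 0.0710 CPM in shCTR, and Ifnb1 had 1 count in each. Of the 8 receptor and signalling genes tested, 2 were past 1.5-fold higher and 0 lower, with a median of 0.30, which was 0.16 with no count filter. Irf9 had 2196 and 1073 counts, a log2 fold change of 1.14 with its interval above 0, and Stat2 had 1290 and 756, a log2 fold change of 0.88 (0.75 to 1.01). Both encode transcription factors of the interferon response, and both were higher in the silenced library. Jak1, the receptor-associated kinase with the most counts, had 9206 and 10656, a log2 fold change of -0.10 (-0.14 to -0.06).

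The RNA-sensing RIG-I-like receptors, which reach TBK1 through Mavs instead of STING, gave a comparison. Ddx58, encoding RIG-I, had 1806 counts with shcircCsnk1g3 and 1100 with shCTR, a log2 fold change of 0.82 (0.71 to 0.93). This fold was close to those of Ifi203 and Ifi204 and above that of cGAS. The adaptor Mavs had 2634 and 2564 counts, a log2 fold change of 0.15 (0.07 to 0.23). Of the 4 genes of this list 1 was past 1.5-fold higher and 0 lower, with a median of 0.39, beside 0.40 for the 7 DNA sensing and clearance genes.

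Markers of leukocytes, endothelium and lung epithelium were read in both libraries. Of 20 leukocyte genes, 15 were at or under 3 counts in both libraries and 4 were tested. Ptprc had 1 and 0 counts, Csf1r had 2 and 6, and Adgre1, Itgam, Lyz2, C1qa, Tyrobp, Spi1 and Cd3e had 0 in both. The summed level was 51.2 CPM in shcircCsnk1g3 and 48.9 CPM in shCTR, of which Cd14 was the largest part. Of the 4 tested, 2 had log2 fold changes above 0, Cd14 (1844 and 1774 counts) at 0.16 (0.07 to 0.26) and Coro1a (28 and 27 counts) at 0.15 (-0.66 to 0.98). The other two were below 0, Cd68 (87 and 155 counts) at -0.71 (-1.12 to -0.34) and Laptm5 (45 and 102 counts) at -1.04 (-1.61 to -0.55). Their part in the values of the 7 genes was not tested. Endothelial markers summed to 19 and 32 counts and lung epithelial markers to 7 and 13 counts.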

How the data were processed

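A stranded poly(A) kit was used for both libraries. The authors aligned reads to GRCm38 with STAR and estimated gene counts with RSEM. The GENCODE release and the use of strand in counting are not given in the sources used here. The deposited count table holds whole-number counts without normalization for 25509 genes, beside 92 spike-in rows at 0, left out here. The deposited CPM table holds TMM-scaled values for 11624 genes, equal to the counts times 1 constant per library, and served as an alternative.

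Samples were grouped by the transduction label, with 1 library per group. TMM factors and log2 fold changes (prior count 2) came from edgeR 4.0.16 in R 4.3.3, for genes that reached 10 counts in either library. Intervals (python 3.11.15, scipy 1.17.1) were exact Clopper-Pearson for count ratios, conditional odds ratios for pairs of genes and Poisson for levels, at 95%. They cover counting error only, since duplicate reads are not separate molecules. A call is 1.5-fold or more. Coordinates, exon lengths and shared 50-base stretches came from GENCODE M21, which held 25251 of the 25509 identifiers. The intervals and folds were tested on simulated counts.

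The members and lists were chosen with earlier results of these data known. Named genes are the 7, every list gene past 1.5-fold whose interval leaves 0, and the gene with the most counts in each list. The promoter search, the summed counts and the list counts over genes with 10 counts in both libraries were added after seeing the data. Alternatives were DESeq2 1.42.0 size factors, total counts, prior counts of 0.5 and 10, the deposited CPM table, no filter, minimums of 50 and 200 summed counts, folds of 1.25 and 2, and the longest transcript as length. A result for 1 gene of the lists is not reported here.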

Additional observations from a re-analysis of the deposited data

How the results depend on the processing

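With 1 library per group, no replicate could be left out, and culture-to-culture variation was not measured. No paired analysis was possible because each group has 1 library and no test was made. The 7 genes gave 56 values under the alternative scalings, prior counts, filters and the deposited table, and all 56 stayed within the counting interval, from 1.45 to 1.58 for Zbp1, 0.84 to 0.91 for Ifi203, 0.83 to 0.87 for Ifi204, 0.40 to 0.44 for cGAS, 0.33 to 0.37 for Trex1, -0.04 to -0.01 for Samhd1 and -0.14 to -0.10 for STING. Past 2-fold 1 of the 7 was higher, and past a ratio of 5 to 4, 5 were. Genes past 1.5-fold numbered 698 higher and 817 lower, against 352 and 528 in the deposited table, 1765 and 1468 with no filter, 405 and 533 from 50 summed counts and 212 and 335 from 200, and the number of genes tested changed with each. At 2-fold they were 275 and 330, and at a ratio of 5 to 4, 1598 and 1692. Of 88 list medians, 6 moved by more than the median counting half-width of the list's genes: the cGAS regulators to -0.017 in the deposited table, -0.018 with no filter and -0.043 from 200 summed counts, the Aim2 arm to -0.050 with no filter and 0.29 from 200 summed counts, and the interferon list to 0.16 with no filter. The Ifi200 median was 0.66 at a prior count of 10, 0.71 in the deposited table, 0.59 from 50 summed counts and 0.55 from 200. The filters and the deposited table changed which genes entered, while the prior count of 10 kept the same genes. The cause of these moves was not tested further. With the longest transcript as length, levels in shcircCsnk1g3 were 36.4 CPM per kilobase for STING, 1.59 for Ifi203, 11.1 for Ifi204 and 21.7 for Samhd1. Scarce Ifi200 genes rest on few counts, with wide intervals.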
